A study of Mus musculus with 81 samples.

Results

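Mouse T cells of a mature hybridoma line (a T cell fused to a thymoma cell so that it grows without limit) were edited with CRISPR/Cas9 to deplete RBPJ, and RNA sequencing compared 2 edited lines, sgRbpj_2-12 and sgRbpj_2-14, with the control line Control_sgRbpj. Each line had 2 libraries. The 6 libraries were taken by their labels from 43 RNA libraries among the 81 samples of the series, and the edited lines, averaged with equal weight, were set against the control. All grew in the same medium, and their labels name no drug and no introduced construct. The labels do not say what guide the control carried, or whether a line is a clone or a pool. They also do not say that the 2 libraries of a line came from separate cultures, so p-values measure only the spread between these libraries, which may be technical. Since the control is 1 line, the loss of RBPJ and any difference between separately derived lines cannot be told apart. A second depletion experiment of the same series, in which control or RBPJ-depleted cells carried the vector Biocontrol (3 libraries each), is used for comparison. It shares no library with the first, and the labels do not name the edited line behind its depleted cells.

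RBPJ is the DNA-binding factor at the end of the Notch pathway. When a Notch receptor is cleaved, its intracellular domain moves to the nucleus, binds RBPJ and recruits the MAML coactivators, which switches on targets such as Hes1. Without that domain RBPJ can hold the same genes off by recruiting corepressors such as SPEN, KYOT2 (encoded by Fhl1), L3MBTL3 and the TLE proteins. Loss of RBPJ can therefore in principle lower genes that depend on Notch signalling or raise genes that RBPJ keeps silent.

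Library totals ran from 2377028 to 5998832 counts, and control replicate 1 was the shallowest. The count of 3 reads corresponded to 1.26 CPM in that library (CPM, counts scaled to a common library total). The level given below is CPM scaled with TMM factors, which correct for differences in composition between libraries. The 9 T cell markers were all detected, with a summed level of 1083 to 1231 CPM in the control and 948.4 to 1115 CPM in the edited libraries. Of the 9, 1 fell (Cd2) and none rose, and with the replicate number as a block 4 fell. Of 12 B cell markers 6 were at 0 in all 6 libraries, Ms4a1 and Pax5 among them. The summed level of the B cell markers was 2.69 to 3.93 CPM in the control and 6.05 to 12.0 CPM in the edited lines. Among them Cd22 rose (log2 fold change 2.56, edgeR quasi-likelihood adjusted p = 0.022), a call lost when some single libraries were left out. Summed NK markers reached at most 0.245 CPM and fibroblast markers at most 2.07 CPM. Summed myeloid markers were at 47.1 to 58.9 CPM in the control and 21.9 to 34.2 CPM in the edited lines, most of it Cd68, with Cd14, Elane, S100a8 and S100a9 at 0. Itgam went the other way, with 0 control counts and 35 edited counts, 13 and 20 of them in line 2-12, where it passed in the test of that line alone (adjusted p = 0.048). Erythroid markers summed to 24.2 to 28.9 and 9.48 to 13.6 CPM. Hba-a1 and Hba-a2 had the same counts in every library, so the sum may hold the same reads for both. Both fell (log2 fold change −2.54, edgeR quasi-likelihood adjusted p = 0.0082). Of 3 erythroid markers tested, 1 lay above both controls in all 4 edited libraries. The part of these marker genes in the results was not tested. In bulk RNA, fewer cells that express a gene and less RNA per cell cannot be told apart.

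Rbpj itself checked the labels. It was at 182 and 133 CPM in the 2 control libraries, at 44.2 and 31.4 CPM in line 2-12 and at 59.6 and 41.8 CPM in line 2-14. The groups did not overlap, and Rbpj fell by 1.85 on the log2 scale (standard error, SE, 0.21; edgeR quasi-likelihood test, Benjamini-Hochberg adjusted p = 0.0043). It remained below the threshold of 0.05 without any single library (log2 fold change −1.61 to −2.07). Counts per gene do not show whether the remaining transcript encodes protein.

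Notch pathway genes moved in both directions. Of 14 listed Notch targets 8 were expressed enough to be tested; 3 rose, Hes1, Hey1 and Il2ra, and none fell. With the replicate number as a block 5 rose and 1 fell. Over all 11566 genes tested 6.21% rose and 3.68% fell, and with the block 18.3% rose and 18.5% fell. The median log2 fold change of the 8 targets was 0.68, against −0.0045 over all genes tested. Hes1, a transcriptional repressor, was at 1.80 and 0.207 CPM in the control, 61.4 and 22.5 CPM in line 2-12 and 56.2 and 20.1 CPM in line 2-14. Every edited library lay above both controls, and in both lines replicate 1 was the higher (log2 fold change 5.71, SE 1.04, adjusted p = 0.0222).

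Hey1, the Hes-related repressor, had 1 count in the control and 61 in the edited lines, a ratio of 21.4 with a 95% counting interval of 3.69 to 858 (adjusted p = 0.0293). Il2ra, the alpha chain of the interleukin-2 receptor, also had 1 control count, and was at 8.01 and 13.0 CPM in line 2-12 but at 0.736 and 1.47 CPM in line 2-14 (adjusted p = 0.0278; ratio of pooled counts 42.4, interval 7.47 to 1688). In both genes the higher level was in line 2-12. The difference between the lines did not pass for Hey1 (adjusted p = 0.64). For Il2ra it had an adjusted p of 0.0748, but passed with the block (log2 difference 3.20, adjusted p = 0.00122), with DESeq2 (adjusted p = 0.0446) and with no low-count filter (adjusted p = 1.7e-07). Without control replicate 1, and likewise without control replicate 2, none of the 8 targets passed (adjusted p = 0.104 and 0.0921 for Hes1). Hey1 lost its call without any one of the 6 libraries (adjusted p = 0.053 to 0.119), and Il2ra without 4 of them (up to 0.114). With the 4 edited libraries as 1 group neither passed (adjusted p = 0.0501 for Hey1 and 0.103 for Il2ra). Intervals of this kind cover counting error only.

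The other 5 tested targets did not pass without the block. Ccnd1, the G1 cyclin D1, was at 3.59 and 3.31 CPM in the control and 5.23 to 10.9 CPM in the edited lines (log2 fold change 1.11, adjusted p = 0.0656; with the block adjusted p = 0.0164). Tcf7, a T lineage factor, was at 216 CPM in both control libraries and 231 to 284 CPM in the edited lines (0.25, adjusted p = 0.19; with the block adjusted p = 0.0445). Both lay above the control in all 4 edited libraries. Myc, the growth regulator, was at 169 and 160 CPM in the control and 156 to 188 CPM in the edited lines (log2 fold change 0.05, adjusted p = 0.806). Ptcra, the pre-T cell receptor chain, was at 4.49 and 2.48 CPM against 0.981 to 1.70 CPM (adjusted p = 0.12) and passed downward only with the block (adjusted p = 0.0375). Dtx1 and Nrarp, which are classical targets, had too few counts to be tested, with 4 and 2 counts in the control and 8 and 5 in the edited lines.

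Among receptors, ligands and processing genes of the pathway 28 were tested. Of these 1 rose and 3 fell (6 and 6 with the block, beside 18.3% and 18.5% of all genes tested). Leaving out 1 library gave 1 up and 1 or 2 down, but 3 up and 4 down without control replicate 2. Notch1 was at 5.83 and 8.06 CPM in the control, 27.9 and 23.7 CPM in line 2-12 and 21.3 and 23.9 CPM in line 2-14, with no overlap (log2 fold change 1.74, SE 0.22, adjusted p = 0.00619). Notch2, the other well-expressed receptor, was at 264 and 370 CPM against 294 to 356 CPM (adjusted p = 0.93). Dtx3, a Deltex family ubiquitin ligase, fell from 118 and 104 CPM to 57.1 to 58.4 CPM (log2 fold change −0.94, adjusted p = 0.00441). Numb, an inhibitor of Notch (−0.56, adjusted p = 0.031), and Mib2, a ligase for Notch ligands (−0.64, adjusted p = 0.0417), fell less. Mib2 did not pass without control replicate 1 (adjusted p = 0.175) or without any one of 3 edited libraries.

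Of 22 tested coactivators and corepressors of RBPJ 3 rose and none fell, beside 6.21% and 3.68% of all genes tested. With the block 6 rose and 1 fell, beside 18.3% and 18.5% of all genes tested. The corepressor Spen was at 118 and 99.6 CPM in the control and at 175 to 251 CPM in the edited lines (log2 fold change 0.96, adjusted p = 0.0303). Bcor, which encodes a Polycomb-type corepressor, was at 91.5 and 159 CPM against 238 to 263 CPM (0.95, adjusted p = 0.0378). Tle3, a Groucho family corepressor, rose by 0.58 (adjusted p = 0.0317). The edited libraries lay above both controls in each of the 3 genes, but each call was lost without at least 4 of the 6 libraries taken out in turn (adjusted p up to 0.104 for Spen).

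**Figure D1:**
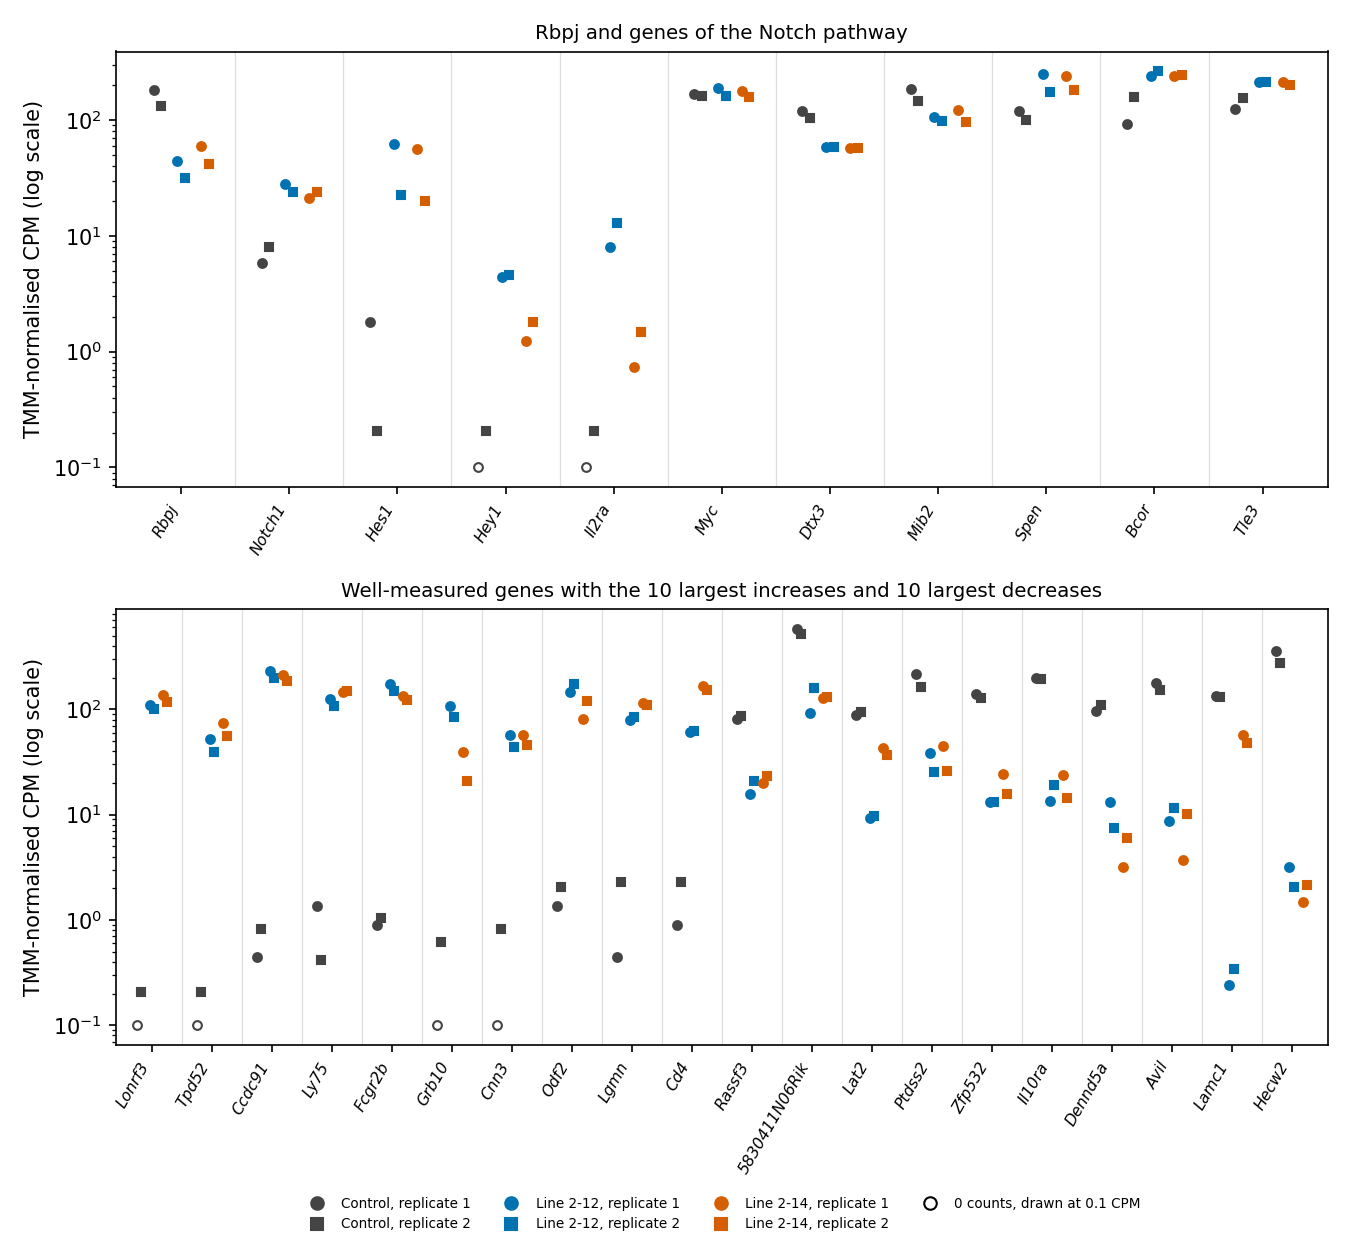
Level of single genes in each of the 6 libraries, as TMM-normalised CPM on a log axis; each point is 1 library, coloured by line and shaped by replicate number, and open points at 0.1 mark 0 counts. Rbpj lies at 31.4 to 59.6 CPM in the edited lines and at 133 and 182 CPM in the control, and Lamc1, Lat2, Cd4 and Grb10 lie apart in lines 2-12 and 2-14.

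Across the transcriptome 718 genes rose and 426 fell, 9.89% of those tested. Of the genes that rose 448 changed at least 2-fold and 78 at least 16-fold, and of those that fell 169 and 56 did. The median log2 fold change was 1.33 among genes that rose and −0.80 among genes that fell. In 714 of the 718 and in 410 of the 426, all 4 edited libraries lay beyond both controls, while this held for 22.4% (above) and 21.4% (below) of all genes tested. With the replicate number as a block 4260 genes passed (36.8%), 2120 up (18.3%) and 2140 down (18.5%), and all 1144 genes called without the block were among them. Leaving out 1 library gave 379 genes without control replicate 1 and 2511 without control replicate 2, of which 46.7% were higher, and between 482 and 581 without an edited library. The same 6 libraries also differed by replicate number in 2125 genes (18.4%). The fits without 1 library held no block, so in them replicate number was unbalanced between the groups.

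**Figure D2:**
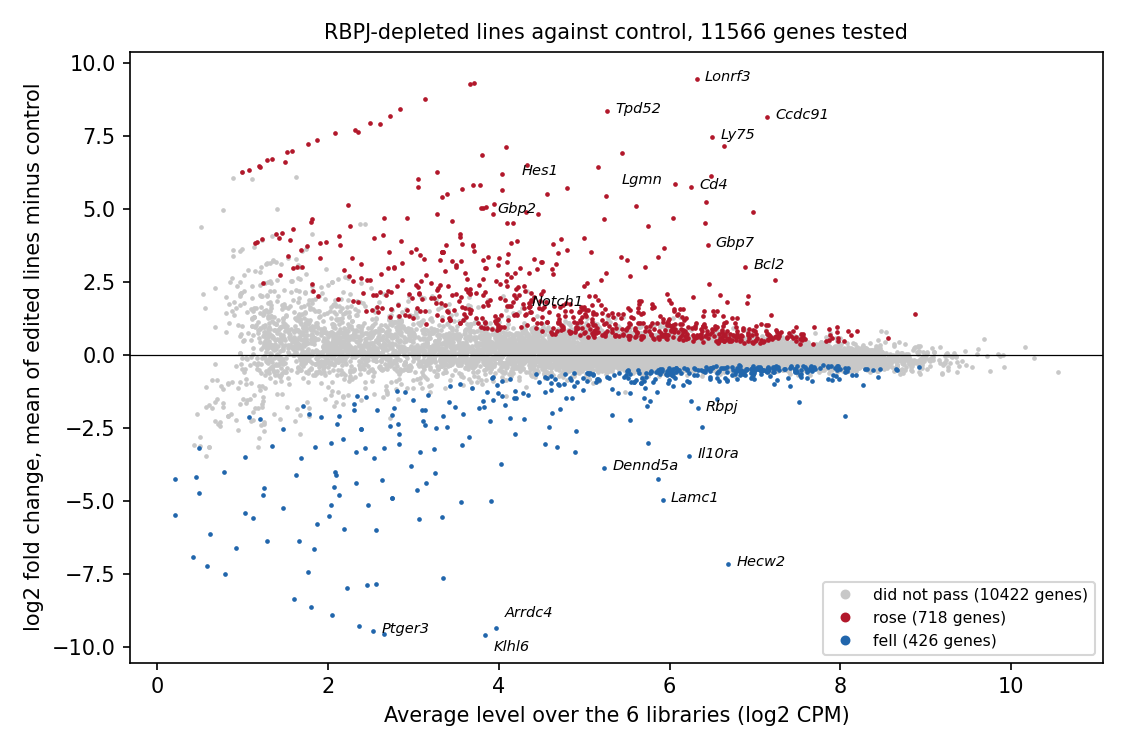
Each point is 1 of 11566 genes tested, with the average level over the 6 libraries in log2 CPM on the x axis and the log2 fold change of the edited lines against control on the y axis. The 718 genes that rose are red and the 426 that fell are blue, with Ccdc91 (8.15) and Hecw2 (−7.17) far from 0 at high levels.

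Among well-measured genes, those with an average level of at least 5 on the log2 CPM scale, several went from near silence to a clear signal in both lines. Lonrf3, which encodes a RING finger protein, had 1 count in the control and was at 111, 102, 137 and 118 CPM in the 4 edited libraries. Ccdc91, a trafficking adaptor gene, was at 0.449 and 0.827 CPM in the control and at 188 to 233 CPM in the edited lines (log2 fold change 8.15, SE 0.25, adjusted p = 4.3e-05). Ly75, the endocytic lectin receptor DEC-205, went from 1.35 and 0.413 CPM to 107 to 148 CPM (7.46, adjusted p = 8.6e-05). Control and edited libraries did not overlap in any of the 3 genes.

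The other members of this group belong to membrane and cytoskeletal functions as well as to signalling. Fcgr2b, the inhibitory Fc receptor best known from B cells, was at 0.898 and 1.03 CPM in the control and at 124 to 176 CPM in the edited lines (7.15, SE 0.22). Cnn3, an actin-binding calponin, was at 0 and 0.827 CPM against 43.7 to 57.3 CPM (6.44), and Odf2, a centriolar appendage protein gene, at 1.35 and 2.07 CPM against 81.9 to 173 CPM (6.10). Grb10, an adaptor that restrains growth factor receptors, had 3 control counts and was at 107 and 84.5 CPM in line 2-12 but at 39.7 and 21.1 CPM in line 2-14. Lgmn, the lysosomal protease legumain, was at 0.449 and 2.27 CPM in the control, 79.4 and 84.2 CPM in line 2-12 and 114 and 111 CPM in line 2-14 (5.83, SE 0.31, adjusted p = 0.000267).

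Cd4, the T helper co-receptor, behaved alike in direction but not in size. It was at 0.898 and 2.27 CPM in the control, at 60.9 and 62.3 CPM in line 2-12 and at 167 and 152 CPM in line 2-14. The rise passed in each line (log2 fold change 5.07 and 6.44, adjusted p = 0.00032 and 9.8e-05), and the lines differed by 1.37 (adjusted p = 0.0261).

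The largest decreases among well-measured genes were those of Hecw2, a HECT ubiquitin ligase, Lamc1, a laminin chain, and Avil, the actin regulator advillin. Hecw2 was at 357 and 274 CPM in the control and at 1.47 to 3.16 CPM in all 4 edited libraries (log2 fold change −7.17, SE 0.20, adjusted p = 4.3e-05). Avil fell from 177 and 153 CPM to 3.68 to 11.4 CPM (−4.26). Dennd5a, an exchange factor for Rab GTPases, fell from 96.0 and 109 CPM to 3.19 to 13.1 CPM (−3.88, adjusted p = 0.000579).

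Il10ra, the ligand-binding chain of the interleukin-10 receptor, was at 197 and 194 CPM in the control, 13.6 and 19.0 CPM in line 2-12 and 24.0 and 14.4 CPM in line 2-14 (−3.47, SE 0.21, adjusted p = 0.000379). Zfp532 (−3.04), the phosphatidylserine synthase gene Ptdss2 (−2.49), the uncharacterised gene 5830411N06Rik (−2.10) and Rassf3 (−2.06), of the RAS association domain family, completed the set with the adaptor gene Lat2 (−2.23; adjusted p = 0.0697 with the 4 edited libraries as 1 group). In each of these genes the edited and control libraries did not overlap.

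Some genes were detected on one side only. Of the genes that rose 70 had at most 3 counts in the control and 21 had none. Of those that fell 24 had at most 3 counts in the edited lines and 9 had none. The control side holds 2 libraries and the edited side 4, so the limit of 3 counts is less strict for the control. The numbers in the 2 directions are therefore not comparable. Tpd52, a vesicle trafficking gene, had 1 control count and lay at 39.8 to 75.0 CPM in the edited lines. In the other direction Arrdc4, an alpha-arrestin that responds to glucose, was at 48.5 and 53.5 CPM in the control with 2 counts over the 4 edited libraries (ratio 524 lower, interval 144 to 4341). Klhl6, a ubiquitin ligase adaptor of lymphocytes, was at 36.8 and 54.1 CPM with 1 edited count, and Clec2f, a lectin-like gene, at 38.6 and 30.2 CPM with 3. Such ratios rest on the floor or on a few reads, so their size is uncertain, but control and edited libraries were far apart in all 4 genes.

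In 3 lists of interferon-induced genes 29 members rose, none fell and 19 did not pass. Over all genes tested 6.21% rose and 3.68% fell. Among 10 guanylate-binding protein genes, GTPases that attack intracellular pathogens, 6 rose and none fell (median log2 fold change 1.70). Of 3 tested immunity-related GTPases 2 rose, Irgm1 and Irgm2 (median 1.27); Irgm2 did not pass without control replicate 1 (adjusted p = 0.103) or without replicate 2 of either edited line. Of 35 tested antiviral genes 21 rose and none fell (median 1.54). In 29 of the 35 all 4 edited libraries lay above both controls, which held for 22.4% of all genes tested. The lists were chosen with earlier results of these data known. Without single libraries the count of antiviral genes that rose was 11 (without control replicate 1) to 23 (without control replicate 2), with 0 down each time.

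Gbp7 was at 8.98 and 9.30 CPM in the control, 113 and 120 CPM in line 2-12 and 120 and 140 CPM in line 2-14 (log2 fold change 3.74, adjusted p = 0.000112). Gbp2 was at 0.449 and 0.827 CPM against 24.8 to 39.7 CPM (5.49, SE 0.36), and Gbp3 at the same control levels against 13.4 to 27.9 CPM (4.81). Both are known as targets of interferon gamma and of IRF1. Gbp4 (0.06, adjusted p = 0.89) and Gbp8 (−0.23, adjusted p = 0.6), did not pass, so the rise was uneven within the family. Members of the Gbp, Ifit, Oas and Mx families resemble each other in sequence, so reads may have been split between them. Gbp5 had 0 control counts and 55 edited counts, at least 6.42-fold higher, and did not pass without any one of the 6 libraries in turn.

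Among antiviral genes Mx1, a dynamin-like GTPase, was at 0.898 and 0.413 CPM in the control, 13.8 and 17.9 CPM in line 2-12 and 10.8 and 14.7 CPM in line 2-14 (log2 fold change 4.58, adjusted p = 0.00229). Parp14, an ADP-ribosyltransferase, was at 4.04 and 2.07 CPM against 32.5 to 51.0 CPM (3.98), and Ifih1, the RNA sensor MDA5, at 1.35 and 2.48 CPM against 20.4 to 28.4 CPM (3.44). Trim30a (3.34), Rsad2, which encodes viperin (3.25), Usp18, the ISG15 protease (2.95), and Oas3, an RNA sensor that activates RNase L (1.48), also rose. The members that did not pass included Isg15 (1.26, adjusted p = 0.062), Ddx58, which encodes RIG-I (1.25, adjusted p = 0.068), Bst2 (0.16) and Adar (−0.04). Isg15 and Ddx58 passed with the replicate number as a block, under which 27 of the 35 rose and 1 fell.

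**Figure D3:**
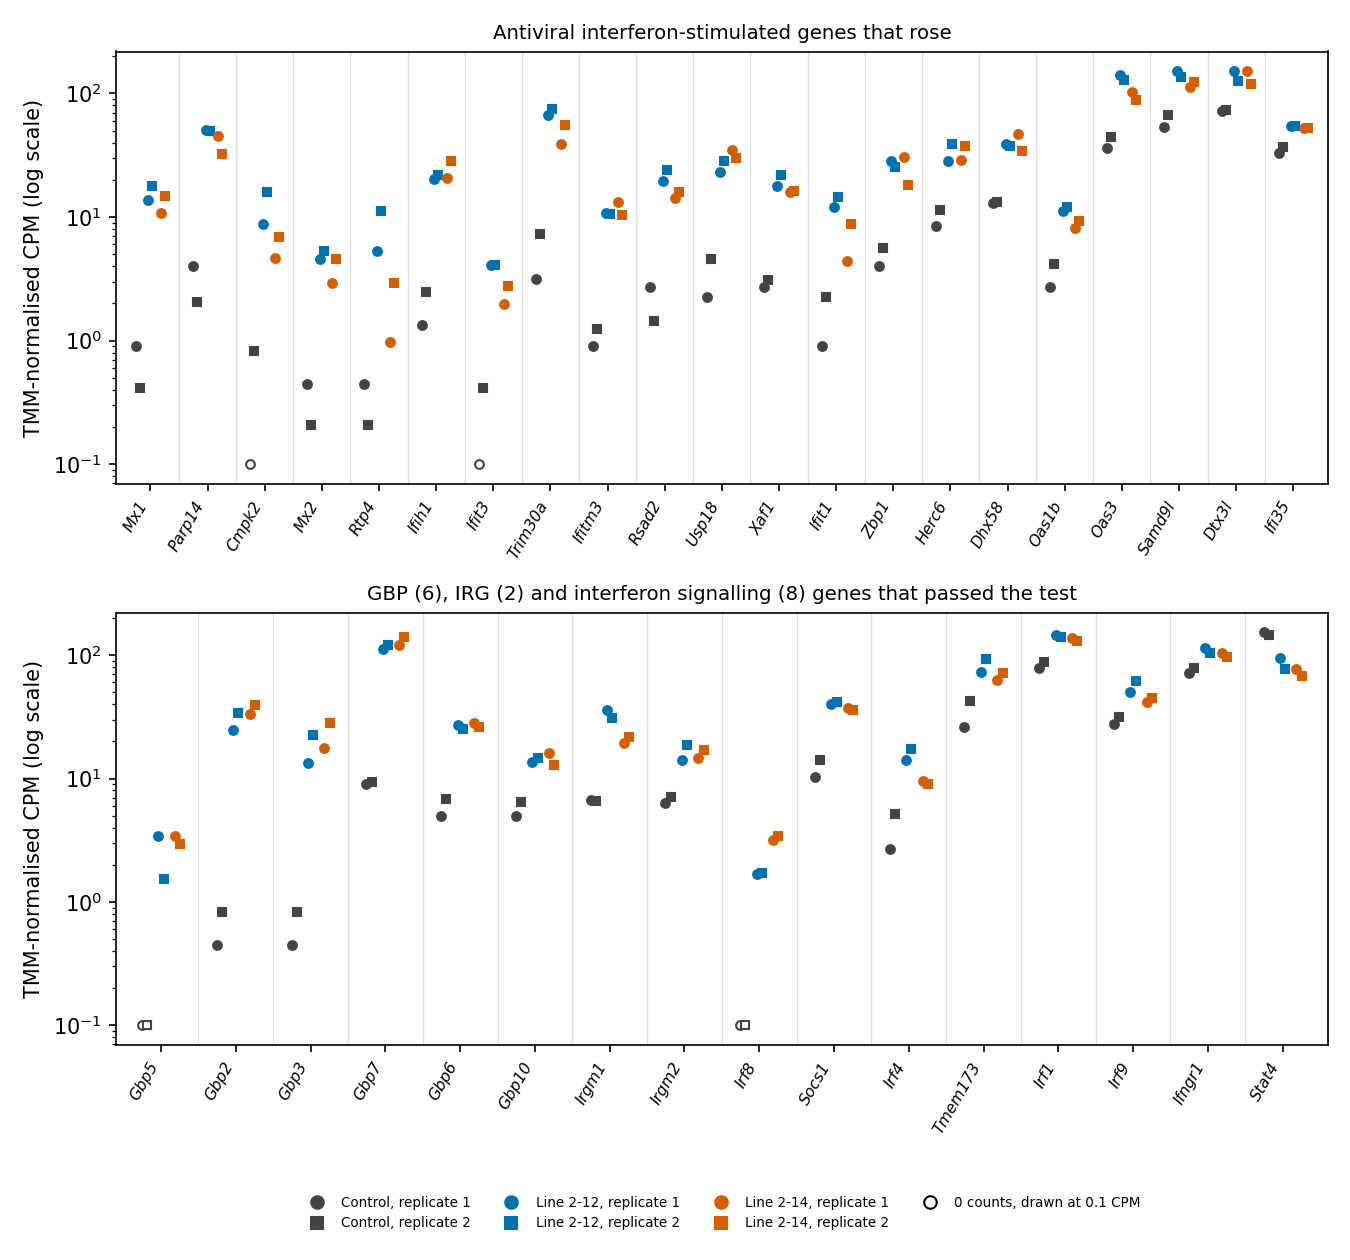
Level in each library, as TMM-normalised CPM on a log axis, of the antiviral genes that rose (upper panel) and of the guanylate-binding protein, immunity-related GTPase and interferon signalling genes that passed (lower panel). Apart from Stat4, which lies lower in the edited lines, the coloured points of both lines lie above the 2 dark control points in every gene shown.

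Signalling genes upstream changed in both directions. Of 30 interferon receptor, JAK, STAT and IRF genes 7 rose and 1 fell (median 0.42), beside 6.21% and 3.68% of all genes tested. With the block 15 of the 30 rose and 1 fell, beside 18.3% and 18.5% of all genes tested. Leaving out 1 library gave 2 or 3 up, but 8 without control replicate 2, and none fell without control replicate 1. Stat2, a signal transducer of type I interferon, was at 118 and 119 CPM in the control and 109 to 123 CPM in the edited lines (log2 fold change −0.02, adjusted p = 0.91). Irf1 rose from 78.5 and 87.8 CPM to 131 to 146 CPM (0.73, adjusted p = 0.0095), Irf9, the DNA-binding partner of STAT2, by 0.72, and Tmem173, which encodes the DNA-sensing adaptor STING, by 1.09. Socs1, the feedback inhibitor of JAK kinases, rose by 1.63 (adjusted p = 0.00342), and Irf4 by 1.51 (adjusted p = 0.0306), a call lost without any one of 5 libraries (adjusted p = 0.0643 to 0.0956). Stat4, which transduces interleukin-12, fell from 153 and 144 CPM to 68.1 to 95.4 CPM (−0.91, adjusted p = 0.0084).

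Transcripts of the interferons were nearly absent. Of 21 interferon genes looked up, 15 had 0 counts in all 6 libraries, which allows up to 3 counts per library, and the highest count in any library was 6, for Ifnb1 in line 2-12 replicate 1. Ifnb1 had 1 count in the control and 0 in both libraries of line 2-14. These genes were looked up after the lists above had been seen.

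Promoter sequences from RefSeq (build GRCm38.p6, the 250 bases before a gene's start) were searched on both strands for 2 copies of GAAA separated by any 2 bases, the core of the interferon-stimulated response element, with overlapping matches counted. Promoters were found for 20 of the 29 genes of the 3 interferon-induced lists that rose, and 12 held a match (60%). Among 14 members that did not pass 5 did (35.7%), and among 9139 genes tested 3.11%. These genes were listed for their interferon response, so the share describes the list. The promoters of 4 of the genes that rose are shown because matches on both strands, and single, repeated and overlapping ones, occur among them. Each is printed 5′ to 3′ on the gene's own strand, and capitals mark a match on either strand.

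Gbp2, chr3:142620413-142620662, plus strand: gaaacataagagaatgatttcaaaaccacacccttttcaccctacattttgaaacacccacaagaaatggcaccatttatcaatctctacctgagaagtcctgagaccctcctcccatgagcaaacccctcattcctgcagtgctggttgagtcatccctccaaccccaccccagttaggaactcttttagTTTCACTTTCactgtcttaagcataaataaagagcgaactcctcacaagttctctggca
Ifit1, chr19:34640639-34640888, plus strand: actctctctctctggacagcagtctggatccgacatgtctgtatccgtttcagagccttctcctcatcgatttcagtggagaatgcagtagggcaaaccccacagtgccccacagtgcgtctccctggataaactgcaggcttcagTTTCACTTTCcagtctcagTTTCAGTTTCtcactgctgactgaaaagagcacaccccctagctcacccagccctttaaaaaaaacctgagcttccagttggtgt
Irgm1, chr11:48871421-48871670, minus strand: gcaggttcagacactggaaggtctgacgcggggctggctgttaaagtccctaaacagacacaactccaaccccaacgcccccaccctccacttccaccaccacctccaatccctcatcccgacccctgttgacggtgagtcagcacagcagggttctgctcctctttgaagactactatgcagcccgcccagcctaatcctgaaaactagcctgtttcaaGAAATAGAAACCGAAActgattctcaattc
Oas3, chr5:120777660-120777909, minus strand: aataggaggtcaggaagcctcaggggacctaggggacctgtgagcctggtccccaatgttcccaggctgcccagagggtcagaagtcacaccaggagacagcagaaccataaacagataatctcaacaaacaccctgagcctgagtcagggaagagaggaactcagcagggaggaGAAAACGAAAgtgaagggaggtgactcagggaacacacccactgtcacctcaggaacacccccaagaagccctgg

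The core of the RBPJ binding sequence, GTGGGAA, was searched in the same windows on both strands. It occurred in 7.19% of 570 genes that rose, 3.78% of 344 that fell and 6.01% of 9139 tested. None of the 13 promoters found for the 20 well-measured genes with the largest changes held it, and none of the 20 promoters of the interferon-induced genes that rose did. It occurred in 3 of 14 promoters of interferon-induced genes that did not pass (21.4%) and in 2 of 9 found for listed Notch targets (22.2%). Those 2 were Hes5 and Hey2, neither of which was among the targets that rose. No promoter was found for Hes1 or Hey1, which rose. All these sets of genes are small, and the shares were not tested. Satb1 and Bmf, both among the genes that rose, hold 1 match each and are shown as examples of where it lies; a match is a description, not a binding site.

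Satb1, chr17:51812055-51812304, minus strand: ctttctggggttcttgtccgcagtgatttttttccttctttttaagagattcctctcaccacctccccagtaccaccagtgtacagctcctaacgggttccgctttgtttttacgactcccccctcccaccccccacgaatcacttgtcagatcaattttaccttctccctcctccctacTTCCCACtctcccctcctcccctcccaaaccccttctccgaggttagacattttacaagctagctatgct
Bmf, chr2:118544588-118544837, minus strand: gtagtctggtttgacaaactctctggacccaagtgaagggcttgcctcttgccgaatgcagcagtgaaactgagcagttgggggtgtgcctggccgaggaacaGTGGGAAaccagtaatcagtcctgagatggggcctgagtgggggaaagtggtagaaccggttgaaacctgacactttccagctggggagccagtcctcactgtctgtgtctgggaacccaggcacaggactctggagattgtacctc

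MHC class I presentation genes changed in both directions. Of 27 tested 3 rose, Psmb10, Tapbpl and Erap1, and 2 fell, with a median of −0.18. Over all genes tested 6.21% rose and 3.68% fell, and with the block 18.3% and 18.5%. Psmb10, an immunoproteasome subunit, was at 29.6 and 33.9 CPM in the control and at 58.3 to 64.7 CPM in the edited lines (log2 fold change 0.95, adjusted p = 0.00927), while its partners Psmb8 (−0.13) and Psmb9 (−0.12) did not pass. H2-Q7 fell from 82.6 and 69.4 CPM to 34.2 to 43.4 CPM (−0.97, adjusted p = 0.012; 0.0654 without control replicate 1), and H2-Q6 fell by 0.93. Both share nearly all their sequence, so their reads may not be told apart. Tapbpl lost its call without any one of 5 libraries (adjusted p up to 0.0922). With the replicate block 3 rose and 11 fell, and without control replicate 2, 3 rose and 10 fell.

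Cytokine receptors changed in both directions. Of 27 tested cytokine and receptor genes 6 rose and 2 fell (median 0.46), beside 6.21% and 3.68% of all genes tested. With the block 11 of the 27 rose and 3 fell, beside 18.3% and 18.5% of all genes tested. Without control replicate 1, and likewise without line 2-12 replicate 2, 3 rose, and without control replicate 2, 9 did. Il12rb1, a chain of the interleukin-12 and interleukin-23 receptors, was at 3.59 and 8.68 CPM in the control and at 75.5 to 99.3 CPM in the edited lines (log2 fold change 3.66, adjusted p = 0.0012). Il2rb, the beta chain of the interleukin-2 and interleukin-15 receptors, was at 0.449 and 2.27 CPM against 11.2 and 10.2 CPM in line 2-12 and 67.4 and 58.3 CPM in line 2-14 (3.95, adjusted p = 0.002). Il15ra had 0 control counts and 106 edited counts, at least 12.4-fold higher, with all 4 edited libraries at 4.74 to 5.98 CPM. Il4ra rose by 1.88 and Osm by 0.74, while Il10ra and the TGF-beta co-receptor gene Tgfbr3 fell, the latter not without control replicate 1 (adjusted p = 0.0511) or 2 (adjusted p = 0.0615). The cytokine genes Il2, Il4, Il10 and Ifng had too few counts to be tested.

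Of 23 tested genes of the T cell receptor complex and its signalling 2 rose, Cd4 and Trat1, and 1 fell (median 0.06). With the block 5 rose and 7 fell, beside 18.3% and 18.5% of all genes tested. Without control replicate 2 the list median was 0.085. Trat1, an adaptor that stabilises the receptor complex, was at 0 and 1.45 CPM in the control, 17.0 and 20.7 CPM in line 2-12 and 27.5 and 27.6 CPM in line 2-14 (log2 fold change 4.52, adjusted p = 0.0032). Cd2, an adhesion receptor, fell from 33.2 and 43.4 CPM to 12.3 to 26.5 CPM (−1.04, adjusted p = 0.0175), but not without line 2-12 replicate 1 (adjusted p = 0.0509) or 2 (adjusted p = 0.0596), nor with the 4 edited libraries as 1 group (adjusted p = 0.0796).

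Of 30 tested lineage transcription factors 3 rose and none fell. With the block 7 rose and 4 fell, beside 18.3% and 18.5% of all genes tested. The list median was 0.18, and 0.20 without control replicate 2. Satb1, a chromatin organiser of thymocytes, was at 4.94 and 7.65 CPM in the control, 42.5 and 33.5 CPM in line 2-12 and 21.6 and 19.1 CPM in line 2-14 (2.06, adjusted p = 0.00496). Klf2, a quiescence and homing factor, rose by 1.69 (adjusted p = 0.0582 without control replicate 1) and Nfatc2, an activation factor, by 1.60. Gata3 (0.21, adjusted p = 0.36) did not pass.

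Costimulatory and checkpoint receptors gave 4 genes up and 2 down of 23 (8 and 4 with the block, beside 18.3% and 18.5% of all genes tested). Only 1 rose without any one of 5 libraries, and 3 without control replicate 2. Tnfrsf18, which encodes GITR, fell from 50.7 and 47.1 CPM to 21.1 and 18.6 CPM in line 2-12 and 7.85 and 7.03 CPM in line 2-14 (−2.01, adjusted p = 0.000879). Tnfrsf9, which encodes 4-1BB, fell by 1.06 (adjusted p = 0.0356) but not without control replicate 1 (adjusted p = 0.178) or replicate 2 of either edited line, nor with the 4 edited libraries as 1 group (adjusted p = 0.111). Tnfsf10, the death ligand TRAIL and itself induced by interferon, rose from 3.14 and 4.13 CPM to 17.4 to 25.8 CPM (2.52, adjusted p = 0.00527). Cd226 (0.92), Tnfrsf26 (0.78) and Cd274, which encodes PD-L1 (0.73), were the others that rose.

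Of 14 chemokine and homing genes the chemokine Ccl5 rose (3.29, adjusted p = 0.0071), and Ptger3 and Ccr6 fell. With the block 4 rose and 4 fell, beside 18.3% and 18.5% of all genes tested. The call of Ccr6 was lost without any one of 4 libraries (log2 fold change −1.125 to −1.429). Ptger3, a prostaglandin E2 receptor, was at 20.6 and 18.2 CPM in the control with 0 counts in all 4 edited libraries, at least 127-fold lower. Of 16 integrin and adhesion genes Cd48 fell, with 69 control counts and 0 edited counts, at least 65.6-fold lower, although DESeq2 gave an adjusted p of 0.218 and edgeR 0.0527 without control replicate 1; with the block 5 of the 16 rose and 3 fell. Of 10 granule genes Gzma fell from 24.2 and 31.4 CPM to 1.31 to 9.39 CPM (−3.11, adjusted p = 0.00192), while Serpinb9, the granzyme B inhibitor, rose (2.04, adjusted p = 0.0263), as did Tnfsf10, which this list also holds; without control replicate 1 Serpinb9 did not pass (adjusted p = 0.135), nor without control replicate 2 (adjusted p = 0.0547). Gzmb itself was at 6.73 and 7.65 CPM against 2.12 to 8.98 CPM (adjusted p = 0.212), and passed downward with the block (log2 fold change −1.06, adjusted p = 0.0484). With the block 3 of the 10 rose and 2 fell.

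Of 12 tested BCL2 family genes 2 rose and none fell, beside 6.21% and 3.68% of all genes tested. With the block 4 rose and 2 fell, beside 18.3% and 18.5% of all genes tested. Bcl2, the founding antiapoptotic gene, was at 18 and 22.3 CPM in the control, 134 and 146 CPM in line 2-12 and 195 and 185 CPM in line 2-14 (log2 fold change 2.99, SE 0.14, adjusted p = 0.000193). Bmf, a proapoptotic antagonist of BCL2, was at 5.39 and 4.34 CPM against 33.3 and 26.5 CPM in line 2-12 and 22.1 and 15.2 CPM in line 2-14 (2.30, adjusted p = 0.00582). An inhibitor and a promoter of apoptosis therefore both rose. The other 10 tested family members, Mcl1, Bax and Bcl2l1 among them, did not pass; Mcl1 did with the block, downward (adjusted p = 0.0187).

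Of 30 lysosomal genes 4 rose and 2 fell (5 and 7 with the block, beside 18.3% and 18.5% of all genes tested). The list median was −0.064, and −0.037 without control replicate 2. Beside Lgmn, the sulfatase gene Arsb was at 24.7 and 39.5 CPM in the control and 75.3 to 89.8 CPM in the edited lines (1.34, adjusted p = 0.0107), and Ctso and the channel gene Mcoln1 rose by less than 1. Cd68 fell from 44.9 and 57.4 CPM to 18.4 to 26.0 CPM (−1.22, adjusted p = 0.0154). This is the gene that carried most of the summed myeloid markers.

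**Figure D4:**
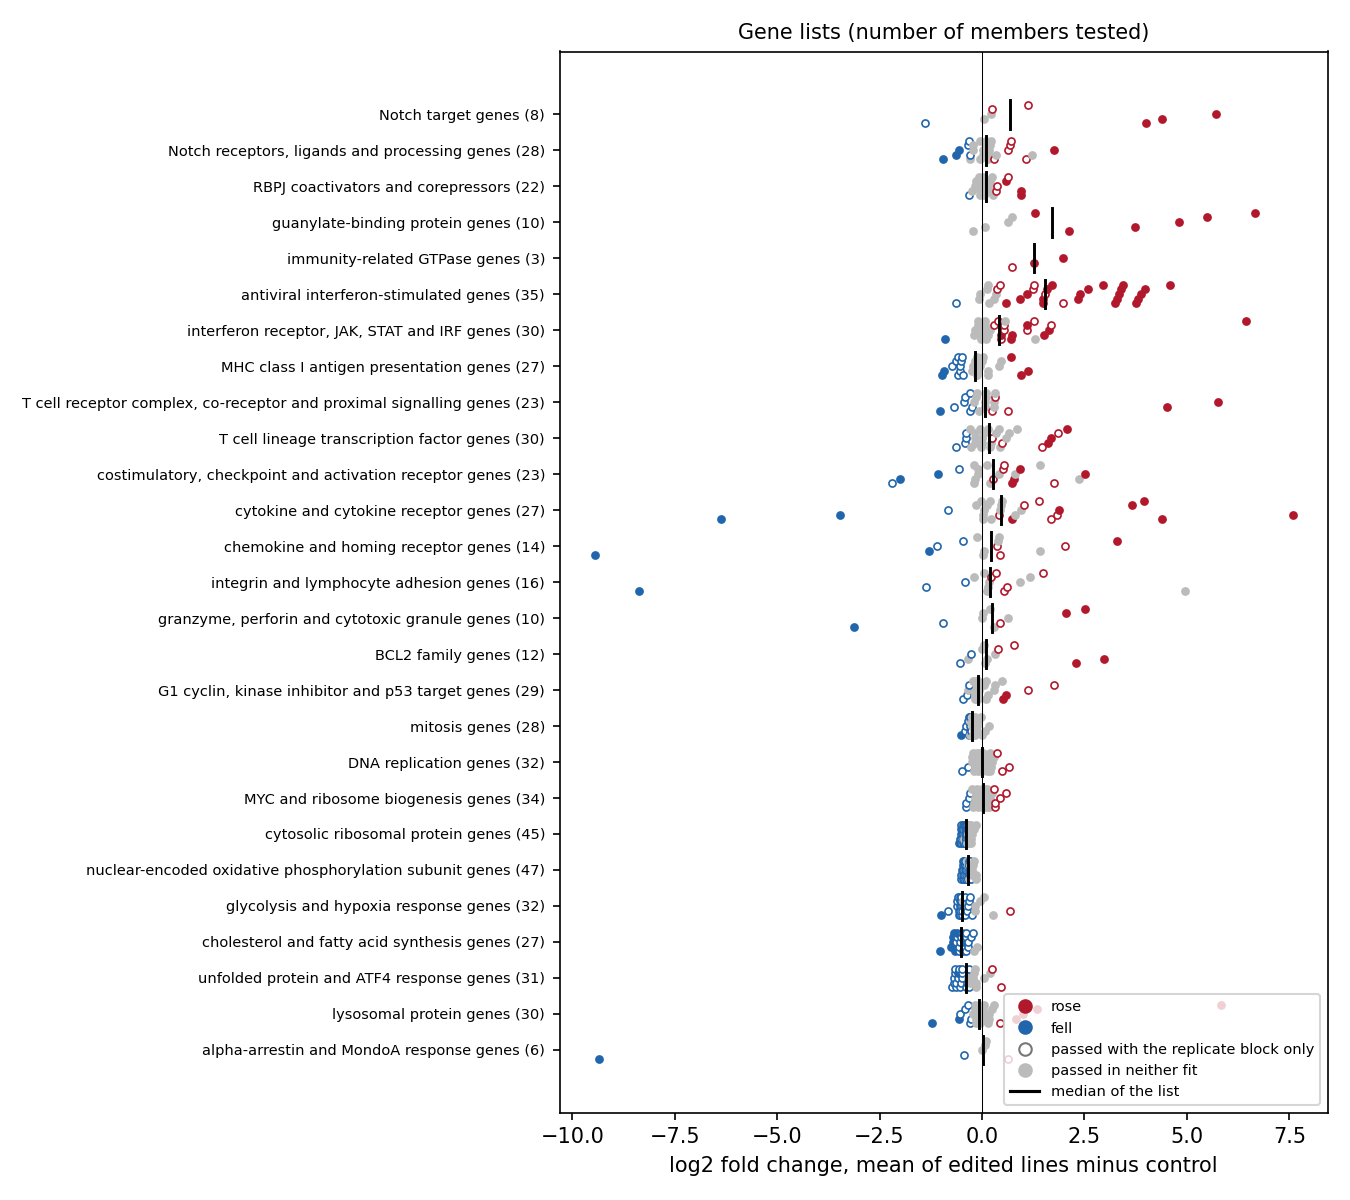
Log2 fold change of each tested member of 27 gene lists (x axis); filled points passed the test, open points passed only with the replicate block, grey points passed in neither, and the black bar is the list's median. The guanylate-binding protein list (median 1.70) and the antiviral list (1.54) lie to the right of 0, while the cholesterol (−0.51), glycolysis (−0.48), ribosomal protein (−0.39) and oxidative phosphorylation (−0.34) lists lie tightly to the left.

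Genes of cholesterol and fatty acid synthesis lay lower in the edited lines. All 27 tested had a negative log2 fold change (median −0.51), and 9 fell and none rose. In 23 of 27 all 4 edited libraries lay below both controls, which held for 21.4% of all genes tested. Pmvk, phosphomevalonate kinase, was at 127 and 92.6 CPM in the control and at 52.0 to 55.3 CPM in the edited lines (−1.03, adjusted p = 0.0097). Lss, lanosterol synthase, was at 543 and 413 CPM against 245 to 307 CPM (−0.76, adjusted p = 0.0184; 0.0635 and 0.0626 without replicate 2 of line 2-12 and of line 2-14), and Scd1, the stearoyl-CoA desaturase, at 420 and 361 CPM against 228 to 263 CPM (−0.70, adjusted p = 0.014). With the block 25 of the 27 fell, beside 18.5% of all genes tested.

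Several of these lists changed most when a control library was left out. Many of their genes were higher in control replicate 1 than in control replicate 2. These fits held no block, so leaving out a control library also unbalanced replicate number between control and edited lines. The library and its replicate number cannot be told apart there. Without control replicate 1, 2 of then 28 tested cholesterol genes fell (median −0.28), and without control replicate 2, 21 of 28 did (median −0.67). These counts without a library were chosen after seeing the data. Of 32 glycolysis and hypoxia genes 1 fell, Aldoc (−1.0, adjusted p = 0.0258; adjusted p = 0.129 without control replicate 1, 0.0603 and 0.0598 without replicate 2 of line 2-12 and of line 2-14); with the block 25 fell and 1 rose, without control replicate 1 none passed and without control replicate 2, 20 fell.

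Over all genes tested 3.68% fell, and 18.5% with the block. All 47 oxidative phosphorylation genes had a negative log2 fold change (median −0.34) and none passed. With the block 34 fell, without control replicate 2, 28 did, and without control replicate 1 none did (median −0.15). The 45 ribosomal protein genes were likewise all negative (median −0.39); Rpl22 fell (−0.57, adjusted p = 0.0252; up to 0.0965 without any one of 5 libraries), 31 fell with the block, and without control replicate 1 none did (median −0.084). In both lists replicate 2 lay below replicate 1 (median −0.21 and −0.33 on the log2 scale over the 3 lines). Of 31 unfolded protein and ATF4 response genes 1 fell, Psph (−0.58, adjusted p = 0.0438), and 19 fell and 2 rose with the block. Psph lost its call without any one of the 6 libraries (adjusted p = 0.0819 to 0.134). Without control replicate 2, 15 members fell, and none passed without any other library.

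Cell cycle genes gave few calls without the block. Over all genes tested 6.21% rose and 3.68% fell, and with the block 18.3% and 18.5%. Of 32 DNA replication genes none passed (median −0.01; with the block 3 rose and 2 fell), and none of 34 MYC and ribosome biogenesis genes did (median 0.01; 5 and 4). Of 28 mitosis genes Cdc20 fell (−0.50, adjusted p = 0.0287), and 25 had a negative log2 fold change. In 11 mitosis genes (against 21.4% of all genes tested) all 4 edited libraries lay below both controls. With the block 10 of them fell, without control replicate 2, 15 did, and without any other library none did. Of 29 G1 cyclin, kinase inhibitor and p53 target genes 2 rose and none fell (median −0.11; 4 and 3 with the block), Cdk6, a G1 kinase (0.58, adjusted p = 0.0255), and Rbl2, a pocket protein that restrains the cell cycle (0.51, adjusted p = 0.0346). Cdc20, Cdk6 and Rbl2 each lost the call without any one of 5 libraries, all but control replicate 2 (adjusted p up to 0.111, 0.0947 and 0.118).

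Each line was also compared with the control alone. In line 2-12, 559 genes rose and 246 fell (4.83% and 2.13%, together 6.96%), and in line 2-14, 393 rose and 191 fell (3.4% and 1.65%, together 5.05%). These comparisons share the control libraries. In all, 325 genes rose and 129 fell in each of the lines tested alone, and 1 passed with opposite sign. Between the lines themselves 56 genes passed (0.484%), 35 higher in line 2-12 (0.303%) and 21 higher in line 2-14 (0.182%), and 282 passed with the block.

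The genes that differed between the lines included some with large changes in the mean of both lines. Lamc1 was at 134 and 131 CPM in the control, 0.243 and 0.342 CPM in line 2-12 and 57.6 and 48.0 CPM in line 2-14 (difference between the lines −7.33 on the log2 scale, adjusted p = 0.000543). With the 4 edited libraries as 1 group, which counts the difference between the lines as spread, its mean change did not pass (−2.32, adjusted p = 0.205). Adam12, a membrane metalloprotease gene, was at 46.2 and 84.1 CPM in the control, 2.43 and 3.59 CPM in line 2-12 and 177 and 140 CPM in line 2-14, so that it lay below the control in one line and above it in the other. Its mean log2 fold change of −1.59 (adjusted p = 0.0193) describes neither line, and with the 4 edited libraries as 1 group it was 0.27. Dtnb, which encodes beta-dystrobrevin, was at 178 and 157 CPM in the control, 174 and 146 CPM in line 2-12 and 53 and 55.9 CPM in line 2-14 (difference 1.55, adjusted p = 0.0105). Kiz, a centrosomal gene, was at 26.0 and 28.9 CPM, 105 and 99.9 CPM, and 32.6 and 34.5 CPM in the same order (difference 1.61, adjusted p = 0.0105). With the 4 edited libraries as 1 group neither passed (adjusted p = 0.382 for Dtnb and 0.16 for Kiz). In Dtnb and Kiz 1 line stood apart while the other lay within or near the control range.

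In cells with Biocontrol the depletion contrast held 2457 genes up and 2299 down of 11315 tested (21.7% and 20.3%, together 42%), at 8113019 to 10113741 counts per library. Rbpj fell by 2.24, Hes1 rose by 3.47, Notch1 by 2.85 and Lgmn by 5.90. Of 8 listed Notch targets tested there 3 rose and 3 fell (median 0.28), while none fell in the edited lines. Hey1 did not pass there (2.16, edgeR quasi-likelihood adjusted p = 0.0501). Dtx1, which was not tested in the lines, fell by 1.27 (adjusted p = 0.0183). Hecw2 fell by 6.53, Ccdc91 rose by 10.41, Mx1 by 5.33 and Bcl2 by 1.73. Il10ra had 448 counts in the 3 control libraries and 2 in the 3 depleted ones, and Arrdc4 had 396 and 0. Of 690 genes that rose in the edited lines and were tested with Biocontrol, 412 rose there and 62 fell. Of 405 that fell in the lines, 227 fell there and 27 rose. Among 75 named genes that passed in the edited lines and were tested in both experiments, 54 passed with the same sign. Another 10 passed with the opposite sign, and 11 did not pass with Biocontrol. Named genes were picked partly for large changes. Grb10 (6 control and 6 depleted counts with Biocontrol) and 5830411N06Rik (6 and 1) were not tested there.

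Genes of opposite sign included a co-receptor, a corepressor and a costimulatory receptor. Cd4, which rose by 5.75 in the edited lines, fell by 3.94 with Biocontrol (adjusted p = 2.1e-07). Bcor rose by 0.95 and fell by 2.35, and Tnfrsf9 fell by 1.06 and rose by 2.15. Gzmb, which passed downward in the edited lines only with the block, rose by 5.41 with Biocontrol. Of 27 cholesterol genes tested with Biocontrol 13 rose and 3 fell, and of 32 DNA replication genes 21 rose and none fell. Of 40 antiviral genes tested there 23 rose and 3 fell. Over all genes tested there 21.7% rose and 20.3% fell. Rsad2 (−0.97) and Ifit1 (−0.82) fell there while they rose in the edited lines. The difference between the experiments was not tested. Vector and depth differ between the experiments, and levels of some genes in control cells did too. The mean of 5830411N06Rik was 550 CPM in Control_sgRbpj and 0.241 CPM in Control_sgRbpj+Biocontrol. That of Ccr6 was 94.9 and 1.67 CPM, while that of Myc was 165 and 163 CPM. These differences and the unnamed edited line cannot be told apart.

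**Figure D5:**
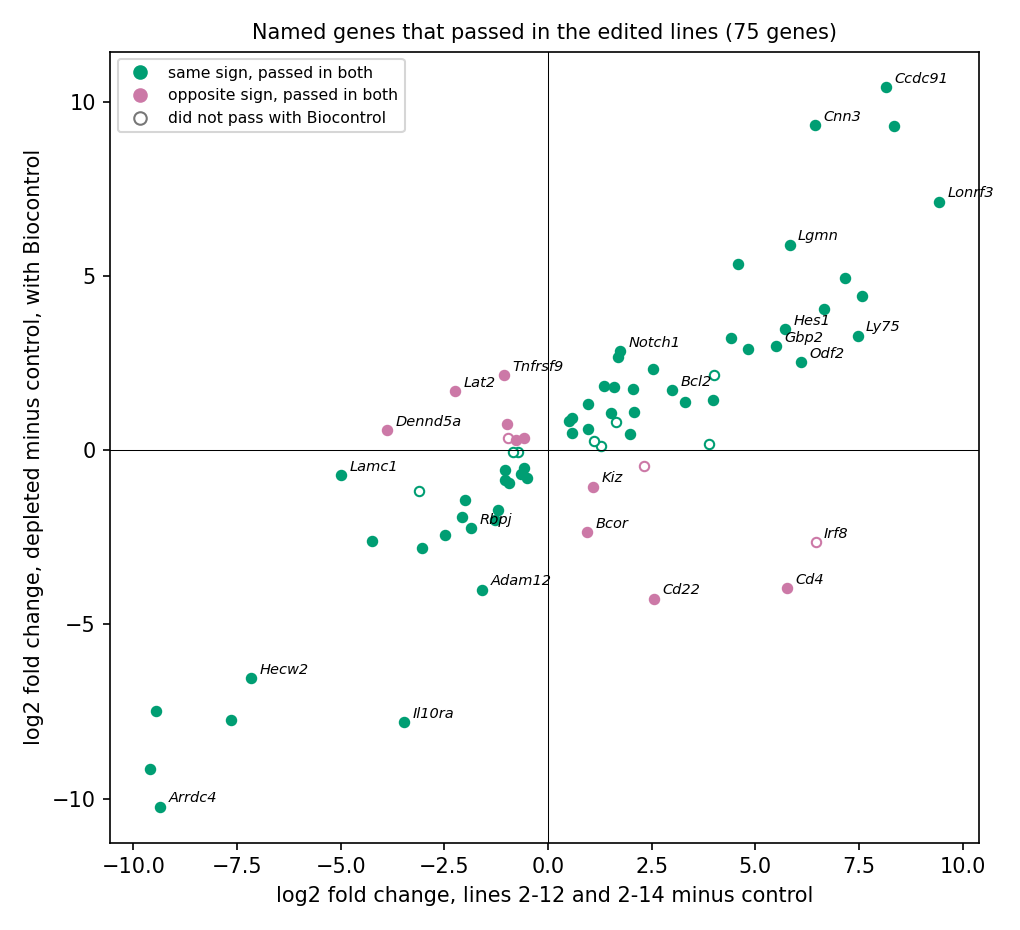
Log2 fold change on depletion in lines 2-12 and 2-14 (x axis) and in cells with Biocontrol (y axis) for 75 named genes that passed in the edited lines; open points did not pass with Biocontrol, and genes with few counts on one side are drawn at their fitted value. The 54 green filled points share their sign, and Cd4, Bcor, Cd22 (with Biocontrol adjusted p = 0.0567 with the block), Kiz, Lat2, Dennd5a and Tnfrsf9 are among the 10 on the opposite side.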

How the data were processed

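Gene counts per library, whole numbers in a table of 24391 gene symbols, were deposited by the authors; the submitters' processing notes name the build mm9 and, with no role, TopHat2 2.1.1, deepTools and Picard, while the counting tool, its annotation and its use of strand are not given in the sources used here. Per the labels, total RNA was prepared with a stranded kit "or others". Of its 65 value columns, 47 were not used here.

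Groups came from the sample labels. Counts were tested with edgeR 4.0.16 (R 4.3.3): TMM factors, the filterByExpr low-count filter (11566 genes kept), 1 mean per group, the quasi-likelihood test and Benjamini-Hochberg adjustment over all genes tested, with a threshold of 0.05 and a prior count of 0.125. Genes "rose" or "fell" only where they passed. The Biocontrol contrast was fitted with the 12 libraries of that experiment. For a group with 0 counts the fold was computed against 3 counts summed over its libraries, and for 1 to 3 counts it is a ratio with an exact 95% interval. The method was also run on simulated data. These held no replicate effect and no difference between the edited lines, so that run does not cover either. Alternatives were DESeq2 1.42.0, RLE factors, no filter, the replicate number as a block, the edited libraries as 1 group, and leaving out each library. Leaving out a library was run without the block, so it cannot separate that library from its replicate number.

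The labels number the replicates but name no shared culture or day. Deviations from the group means correlated between same-numbered libraries in each pair of groups. The values were r = 0.567 for control and line 2-12, 0.433 for control and line 2-14, and 0.608 for both edited lines. By the rule used the numbers therefore pair the libraries. The words rose and fell still follow the fit without the block, which called 1144 genes against 4260 with it. Blocked values stand beside most lists, but not beside every named gene whose call the block changes. Replicates differed by more than counting noise.

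Named genes were the Notch and T cell genes Rbpj, Notch1, Hes1, Hey1, Dtx1, Nrarp, Il2ra, Myc, Lgmn, Cd4 and Gzmb; the 10 largest changes in each direction among genes with an average log2 CPM of at least 5 that passed with and without the block with the same sign in both lines; the 3 most abundant genes near 0 on one side; up to 3 genes per list; and genes that differed between the lines. Other list members were named after their values were seen. The lists and the comparison were chosen with earlier results of these data known. Promoter sequences came from RefSeq (GRCm38.p6), and 9139 of the genes tested matched by symbol. Deposited region lists (mm9) were not used here, and the planned comparison with RBPJ regions was not run, since no annotation of that build was at hand. Some list members are not reported here.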

Additional observations from a re-analysis of the deposited data

Results flagged for a closer look

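Some genes changed in opposite directions on depletion in the edited lines and in cells with Biocontrol, with all libraries of each experiment on opposite sides; the difference between the experiments was not tested. The log2 fold change of Cd4 was 5.75 in the lines and −3.94 with Biocontrol. That of Bcor was 0.95 and −2.35, and that of Kiz 1.08 and −1.05. Dennd5a gave −3.88 and 0.57, Lat2 −2.23 and 1.69, and Tnfrsf9 −1.06 and 2.15. The metabolic genes Lss, Aldoc and Psph gave −0.76, −1 and −0.58 in the lines and 0.30, 0.76 and 0.35 with Biocontrol.

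Other genes differed between lines 2-12 and 2-14 in a test of that difference (edgeR quasi-likelihood, line 2-12 minus line 2-14 on the log2 scale). Lamc1 differed by −7.33 (adjusted p = 0.000543), Adam12 by −5.66 (adjusted p = 0.0065), Lat2 by −2.08 (adjusted p = 0.00988) and Cd4 by −1.37 (adjusted p = 0.0261), each lower in line 2-12. Kiz differed by 1.61 and Dtnb by 1.55 (adjusted p = 0.0105 for both), and Tnfrsf18 by 1.42 (adjusted p = 0.0445), each higher in line 2-12.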

How the results depend on the processing

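With the replicate block 4260 genes passed in the mean of both lines, 3672 in line 2-12, 3243 in line 2-14 and 282 between the lines, against 1144, 805, 584 and 56 without it; the pairing behind it rests on the correlations, not on the labels. With no low-count filter the counts were 2671, 2126, 1870 and 302. DESeq2 gave 109 between the lines. Leaving out 1 library gave 379 to 2511 genes in the mean of both lines, 259 to 1914 in line 2-12, 200 to 1303 in line 2-14 and 3 to 54 between the lines; a group left with 1 library was assumed to vary like the others. The share of called genes that were higher was 62.8%, against 49.8% with the block and 46.7% without control replicate 2. RLE factors kept all 99 tested named genes on their side of the threshold, and the block added 14 and removed none. DESeq2 added 4 and removed Hey1 and Cd48, and the fit with no low-count filter added 10. With the edited libraries as 1 group Hey1, Il2ra, Lamc1, Lat2, Cd2, Tnfrsf9, Kiz and Dtnb no longer passed (adjusted p = 0.0501 to 0.382), 5 other named genes did, and the log2 fold change of Adam12 turned to 0.27. Without single libraries that of Myc ran from −0.0148 to 0.10. With Biocontrol the same ranges crossed 0 for Fdps (−0.17 to 0.0667), Mlx (−0.17 to 0.12), Lat (−0.0476 to 0.12), Itgam (−0.86 to 0.20) and Dtnb (−0.10 to 0.0044). The cause was not tested. The comparison with RBPJ regions and both its alternatives were not run. Control replicate 1, the shallowest library, limits what can be called for genes of low level.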
